A study of Mus musculus with 23 samples.

Results

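Mono(2-ethylhexyl) phthalate (MEHP), the monoester to which the plasticizer DEHP is hydrolyzed in the body, was set directly against 1,4-butanediol dibenzoate (BDB), a candidate plasticizer, in TM4 cells, an immortalized mouse line taken as a model of the Sertoli cell of the testis. All 4 arrays labelled MEHP and all 4 labelled BDB were used, 8 of the 23 arrays of the series, and no vehicle array entered the test. Every culture received its compound at 100 μM for 48 hr in a medium with 1% DMSO, which the vehicle cultures received alone. Total RNA was converted to cRNA, labelled with Cy3 by a low-input Agilent kit and hybridized to 1-colour Agilent mouse arrays, 1 array per culture. The series asked how proposed plasticizers compare with MEHP in their effect on Sertoli cell transcription, and this pair sets a phthalate against a dibenzoate. Both compounds are esters of an aromatic carboxylic acid. MEHP has a single benzene ring that carries 1 ester of a branched alcohol and, beside it, a free carboxylic acid, while BDB is a diester in which a straight diol joins 2 benzoate groups and no free acid is left. TM4 cells are a single established line, so the values describe cultures of that line and not the testis.

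The routes that the comparison turned on are well known. Peroxisome proliferator-activated receptors (PPARs) are nuclear receptors that pair with the retinoid X receptor, are activated by fatty acids and by several phthalate monoesters, and switch on genes for fatty acid uptake, storage and oxidation. Cholesterol synthesis runs from acetyl-CoA through mevalonate to squalene and then to cholesterol, and its enzymes are switched on together by the transcription factor SREBF2 when membrane sterol is low. In the integrated stress response, phosphorylation of the translation factor eIF2α slows protein synthesis while the transcription factor ATF4 and its targets, among them Atf3, Ddit3, Trib3 and Ppp1r15a, are made.

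All values are log2 signals relative to the 75th percentile of the non-control spots of the same array, so 0 is the level of a fairly bright spot and 1 unit is a doubling. The 75th percentile itself was 237 to 327 on the MEHP arrays and 222 to 290 on the BDB arrays, 45.2% to 51.1% and 45.5% to 48.2% of spots were well above background, and any pair of the 8 arrays correlated at 0.991 to 0.996. The number of arrays limits the precision. Of 20 Sertoli cell markers, 10 were well above background on all arrays of both groups, among them Vim, Inhbb, Dhh, Gata4, Dmrt1 and Sox9, and 7 on none of the 12 MEHP, BDB and DMSO arrays, among them Wt1, Amh, Fshr and Cldn11. The summed linear level of the Sertoli list was 223 to 254 on the MEHP arrays and 163 to 208 on the BDB arrays, that of the fibroblast list 407 to 524 and 496 to 727, and that of the peritubular myoid list 116 to 136 and 143 to 185. Most of the Sertoli sum came from Vim, at a mean of 7.77 with MEHP and 7.37 with BDB. The 10 tested Sertoli markers did not move together: their median difference was -0.07, with 5 above 0 and 5 below, and Inhbb stood at 3.69 with MEHP and 4.24 with BDB. Of the other marker lists, 3 of 10 germ cell markers were well above background on all arrays of both groups (Prm1, Prm2 and Tnp1, all dim), 1 of 7 Leydig cell markers (Cyp17a1, at a mean of 3.41 with MEHP and 3.87 with BDB), 2 of 6 macrophage markers (Csf1r and Itgam) and 2 of 6 endothelial markers (Pecam1 and Kdr, the latter at 4.09 and 4.31). The summed level was 9.16 to 13.3 with MEHP and 13.5 to 16.2 with BDB for the Leydig list, 0.558 to 0.722 and 0.659 to 0.850 for the germ cell list, 12.2 to 14.2 and 14.01 to 16.6 for the macrophage list, and 15.0 to 19.9 and 19.0 to 22.6 for the endothelial list. Nearly all of the Leydig sum came from Cyp17a1 and nearly all of the endothelial sum from Kdr. The defining markers Ddx4 and Dazl (germ cell), Cyp11a1 (Leydig cell), Ptprc (macrophage) and Cdh5 (endothelial cell) were well above background on no array. The part of such cell type marker shifts in the results below was not tested, and fewer cells of a kind and less RNA per cell cannot be told apart in such samples.

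Testing was limited to probes that the scanner software marked as well above background on all 4 MEHP arrays or on all 4 BDB arrays, and a gene was called when limma gave any of its probes a Benjamini-Hochberg adjusted p below 0.05 with a difference of more than 1.5-fold. By this rule 465 of 24128 probes (1.93%) were called, and 309 of 11941 genes tested differed between MEHP and BDB, which is 2.59%. Of these, 175 were higher with MEHP (1.47% of genes tested) and 134 were lower (1.12%). The typical difference was small, with a median fold of 1.68 among the called genes, and 56 genes passed 2-fold, 25 higher and 31 lower with MEHP. Of the called probes, 132 have no gene name here. Over the 22912 probes detected on all 8 arrays the group means lay 38.6 log2 units apart, more than in any other split of the 8 arrays into 4 and 4 (exact permutation test over 35 splits, two-sided, p = 0.0286, the smallest p the design allows). With all non-control probes, most of them dim, the distance was 83.2 and p = 0.2 by the same exact permutation test.

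The number of calls depended on single arrays. It was 204 without MEHP replicate 1, 111 without MEHP replicate 2, 152 without MEHP replicate 4, 126 without BDB replicate 2 and 149 without BDB replicate 4, and no call changed direction.

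**Figure D1:**
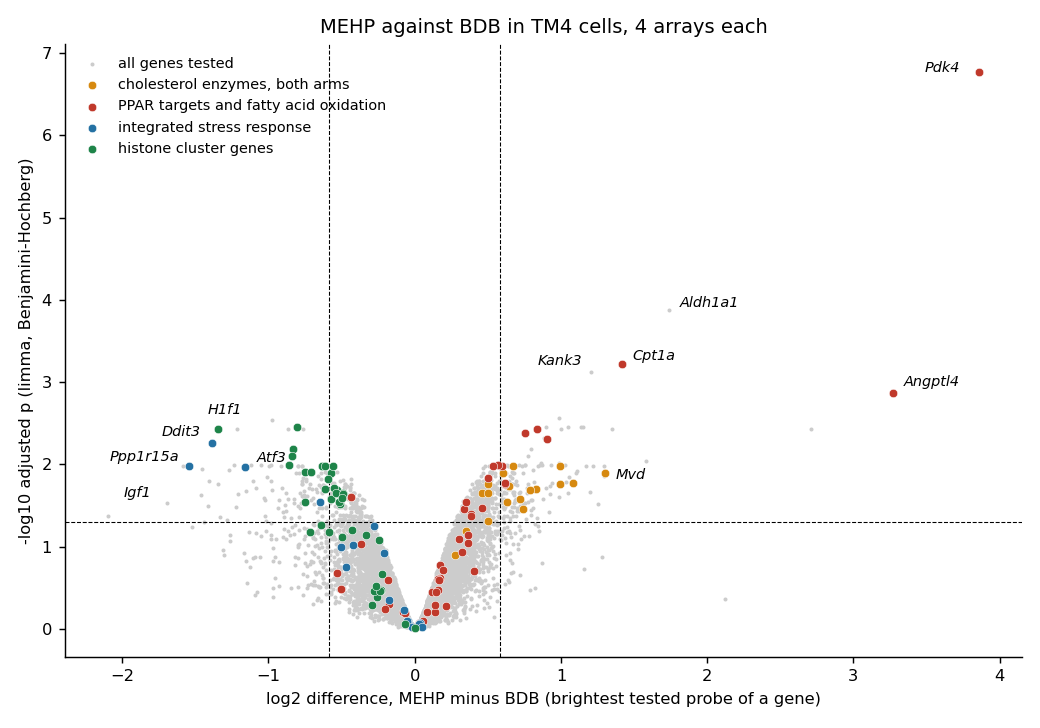
Each point is 1 of 11941 genes, shown by its brightest tested probe, with the log2 difference MEHP minus BDB on the x axis and -log10 of the limma adjusted p on the y axis; dashed lines mark a 1.5-fold difference and an adjusted p of 0.05. Pdk4 and Angptl4 stand far to the right, cholesterol enzymes lie right of 0, and integrated stress response and histone genes lie mostly to the left.

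Genes under PPAR control gave the 2 largest differences between the compounds among genes detected on all 8 arrays. Pdk4, the kinase that shuts off pyruvate dehydrogenase and so spares glucose, read 2.13, 2.18, 2.15 and 2.22 on the 4 MEHP arrays and -1.51, -1.82, -1.82 and -1.59 on the 4 BDB arrays. The MEHP arrays lay within 0.1 log2 of each other and far above every BDB array. The difference was 3.86 ± 0.09 (SE), or 14.5-fold (limma adjusted p = 1.69e-07), and it was 3.66 to 3.98 within the 3 slides. In the DMSO cultures Pdk4 stood at -1.44 ± 0.10 (SD, n = 4), next to BDB. Angptl4, a secreted inhibitor of lipoprotein lipase, read 6.89, 7.27, 7.21 and 7.18 with MEHP against 3.01, 4.30, 4.22 and 3.94 with BDB. It differed by 3.27 ± 0.26, or 9.65-fold (adjusted p = 0.00136), and its mean in BDB and in DMSO was the same to the second decimal, at 3.87.

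A few fatty acid oxidation genes were called, with smaller differences. Cpt1a, which admits long-chain fatty acids to the mitochondrion, read 3.40, 3.63, 3.53 and 3.63 with MEHP and 2.09, 2.00, 2.31 and 2.13 with BDB. The groups were apart on every slide, and the difference was 1.42 ± 0.09, or 2.67-fold (limma adjusted p = 0.000598). Its inner-membrane partner Cpt2 differed by 0.76 ± 0.08 (adjusted p = 0.00419), and Acadl, the long-chain acyl-CoA dehydrogenase, by 0.91 ± 0.10 (adjusted p = 0.00491). These 3 were the called members among 19 mitochondrial oxidation genes tested, and 17 of the 19 lay above 0, with a median of 0.31 where the median of all genes tested was 0.03. Among all 11941 genes tested 6624 lay above 0 and 5317 below. The count of called oxidation genes stayed at 3 or 4 with any 1 array left out. Of 12 PPAR targets outside oxidation, 5 were called, all higher with MEHP: Pdk4, Angptl4, the lipid droplet coat protein Plin2 (0.84 ± 0.08, adjusted p = 0.00368) and the mitochondrial carriers Ucp2 (0.62 ± 0.10) and Ucp3 (0.60 ± 0.08). The other 7 of these targets were not called. Among them Slc25a20, the carnitine carrier, stood at 0.50 and Lpl, lipoprotein lipase, at -0.53. The 12 tested targets, out of 20 listed, were mixed in direction, with 7 above 0 and 5 below. Without MEHP replicate 4 or BDB replicate 4 the count of called targets was 3.

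In peroxisomes 2 of 15 genes passed, Ech1 (0.62 ± 0.10, adjusted p = 0.0166) and, on its dimmer probe alone, Cat, the catalase that breaks down hydrogen peroxide (0.68 ± 0.11 there against 0.14 ± 0.12 on its brighter probe). Neither was called without MEHP replicate 2 or MEHP replicate 4, and 1 of them without BDB replicate 2 or BDB replicate 3. Among the 11 genes of the pyruvate dehydrogenase complex and its kinases and phosphatases, Pdk4 was the 1 called member, and its relatives Pdk1 and Pdk2 differed by 0.23 (95% confidence interval 0.06 to 0.41) and 0.15 (-0.07 to 0.37). Of the receptors themselves none passed both limits: limma called none of 13 tested receptors, partners and coregulators, 4 of which had an unadjusted p below 0.05. Rxra, the retinoid X receptor partner, differed by 0.46 (0.23 to 0.69), Ppara by -0.29 (-0.53 to -0.04), Ppard by 0.15 (-0.06 to 0.35) and Pparg by -0.15 (-0.34 to 0.04). Rxra had an adjusted p of 0.0388 and fell short of the 1.5-fold limit, and its other tested probe gave -0.06 ± 0.15. In Rxra and Ppara the MEHP and BDB arrays did not overlap. Such a gap is common here: it was seen with MEHP above in 13.5% of genes tested and with MEHP below in 6.3%.

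**Figure D2:**
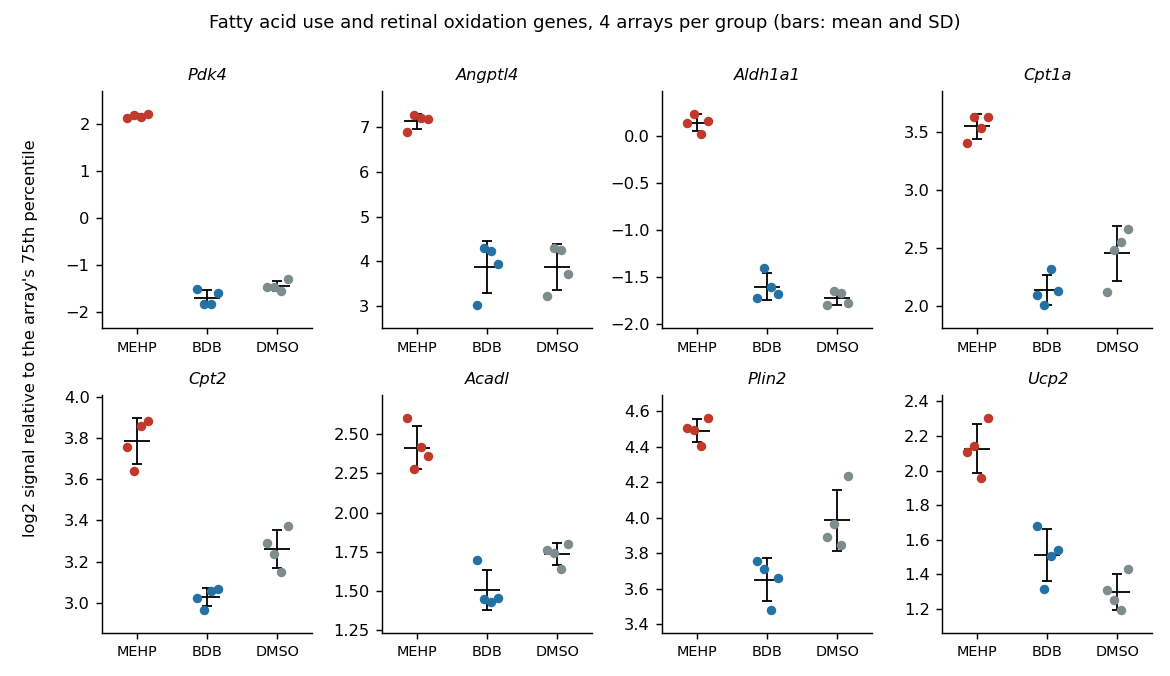
Log2 signal relative to the array's 75th percentile for 8 genes on the 4 MEHP, 4 BDB and 4 DMSO arrays (points), with the mean and SD of each group (bars); every y axis has its own range. In all 8 genes, each of them called, every MEHP point lies above every BDB point, as in 13.5% of all genes tested.

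Lipid storage genes split. Of 12 tested lipid droplet and triglyceride genes, Plin2 and Pnpla2, the lipase that starts triglyceride breakdown, were higher with MEHP, the latter by 0.79 ± 0.18 (limma adjusted p = 0.0409). Dgat2, which completes triglyceride synthesis, was lower by 0.85 on the log2 scale (SE 0.20, adjusted p = 0.0442), and so was Plin4, another droplet coat protein, by 0.74 (SE 0.14, adjusted p = 0.024). Plin4 was well above background on 1 of 4 MEHP arrays, so its MEHP level is poorly measured, and with normexp background correction the difference was -0.24 and not called. Dgat2 read 1.77, 1.83, 2.03 and 2.09 with MEHP and 2.46, 3.14, 2.33 and 3.18 with BDB. Its difference was -1.26 within the first slide row and -0.43 within the third. Plin2 alone kept its call without MEHP replicate 2, MEHP replicate 4, BDB replicate 2 or BDB replicate 4. The count fell to 2 with the slide as a block, and to 2 without MEHP replicate 1, MEHP replicate 3 or BDB replicate 3.

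Cholesterol synthesis stood higher with MEHP along the pathway. All 18 enzymes described here had a positive difference and 12 were called. In the mevalonate arm 6 of 7 passed, with a median difference of 0.99, and from squalene to cholesterol 6 of 11, with a median of 0.64. The gene of mevalonate diphosphate decarboxylase, Mvd, gave the largest difference, and its promoter and that of Hmgcs1, the HMG-CoA synthase, are shown because 14 of the 15 pathway promoters at hand hold the motif CCAAT. They are RefSeq sequences from 250 bases before to 50 after the start of the gene on GRCm38.p6, 5′ to 3′ on the strand of the gene, Mvd from chr8:122443373-122443672 (minus strand) and Hmgcs1 from chr13:119690101-119690400 (plus strand). Capitals mark CCAAT or its complement ATTGG and the sterol regulatory element TCACNCCAC, which do not overlap here.

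Mvd: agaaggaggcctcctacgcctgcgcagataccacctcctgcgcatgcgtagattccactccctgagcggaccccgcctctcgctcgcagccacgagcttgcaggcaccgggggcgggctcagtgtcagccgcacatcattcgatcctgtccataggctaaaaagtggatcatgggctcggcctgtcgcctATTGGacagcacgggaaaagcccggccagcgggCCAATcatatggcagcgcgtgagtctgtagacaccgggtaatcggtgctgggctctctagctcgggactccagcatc

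Hmgcs1: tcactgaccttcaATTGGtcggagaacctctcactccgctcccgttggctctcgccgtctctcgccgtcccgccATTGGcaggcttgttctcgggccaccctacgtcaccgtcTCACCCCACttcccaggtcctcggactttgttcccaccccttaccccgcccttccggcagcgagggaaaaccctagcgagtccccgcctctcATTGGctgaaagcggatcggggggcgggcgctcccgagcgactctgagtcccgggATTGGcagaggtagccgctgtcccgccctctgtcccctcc

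Mvd holds CCAAT in 2 places and Hmgcs1 in 4, and Hmgcs1 holds 1 sterol regulatory element of this spelling. CCAAT occurred on either strand in 41.1% of the 27025 promoters in the RefSeq table and in 43.4% of the 9564 that belong to tested genes, against 93.3% of the 15 pathway promoters. TCACNCCAC occurred in 1 of the 15 (6.67%), where 1.44% of all promoters hold it. A match describes the letters of the window and is not evidence of binding.

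Mvd read 4.55, 4.37, 4.04 and 4.36 with MEHP and 3.56, 2.58, 3.10 and 2.88 with BDB, and differed by 1.30 ± 0.20, or 2.46-fold (limma adjusted p = 0.0129). Hmgcs1 read 5.94, 5.90, 5.81 and 5.82 against 5.25, 4.38, 4.99 and 4.50, a difference of 1.08 ± 0.18 (adjusted p = 0.0166). The MEHP arrays lay within 0.6 log2 of each other in both genes, while the BDB arrays spread over nearly 1 log2. Pmvk, the phosphomevalonate kinase, differed by 1.00 ± 0.14 (adjusted p = 0.0105), Idi1, the isomerase of the isoprenoid building blocks, by 0.99 ± 0.17 (adjusted p = 0.0173), Acat2, which joins 2 acetyl-CoA, by 0.63 ± 0.13 (adjusted p = 0.0283) and Fdps, the farnesyl diphosphate synthase, by 0.60 ± 0.09 (adjusted p = 0.0129). Mvk was the exception, at 0.28 (95% confidence interval 0.06 to 0.50).

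From squalene synthase onward the called genes were Nsdhl (0.83 ± 0.15), Hsd17b7 (0.79 ± 0.14), Dhcr7 (0.74 ± 0.16), Fdft1 (0.72 ± 0.14), Lss (0.67 ± 0.10) and Sc5d (0.64 ± 0.11). Fdft1 joins 2 farnesyl units to squalene, Lss closes the ring system, and Dhcr7 carries out a late reduction. Sqle, Cyp51, Tm7sf2, Msmo1 and Ebp lay between 0.35 and 0.50. Of these, 4 had an adjusted p below 0.05 without reaching 1.5-fold, and with no fold limit 10 of the 11 genes passed. The calls of this arm depended on single arrays: the count was 1 of 11 without MEHP replicate 2, BDB replicate 2 or BDB replicate 4, 2 without MEHP replicate 1 and 4 without MEHP replicate 4, and in the mevalonate arm it was 2 of 7 without MEHP replicate 2, 3 without BDB replicate 2 or BDB replicate 4 and 4 without MEHP replicate 4.

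BDB replicates 2 and 4, which lay in the first row of their slides, read lower in Mvd, Hmgcs1 and Idi1 than BDB replicates 1 and 3, which lay in the third row. Within the first row the difference for Hmgcs1 was 1.43 and within the third 0.74, for Idi1 it was 1.38 and 0.60, and for Mvd 1.57 and 1.03. All 12 called enzymes kept their direction in both rows and on all 3 slides, and with the row as a block 6 of 7 and 6 of 11 genes were called. With the slide as a block the counts were 4 and 5.

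**Figure D3:**
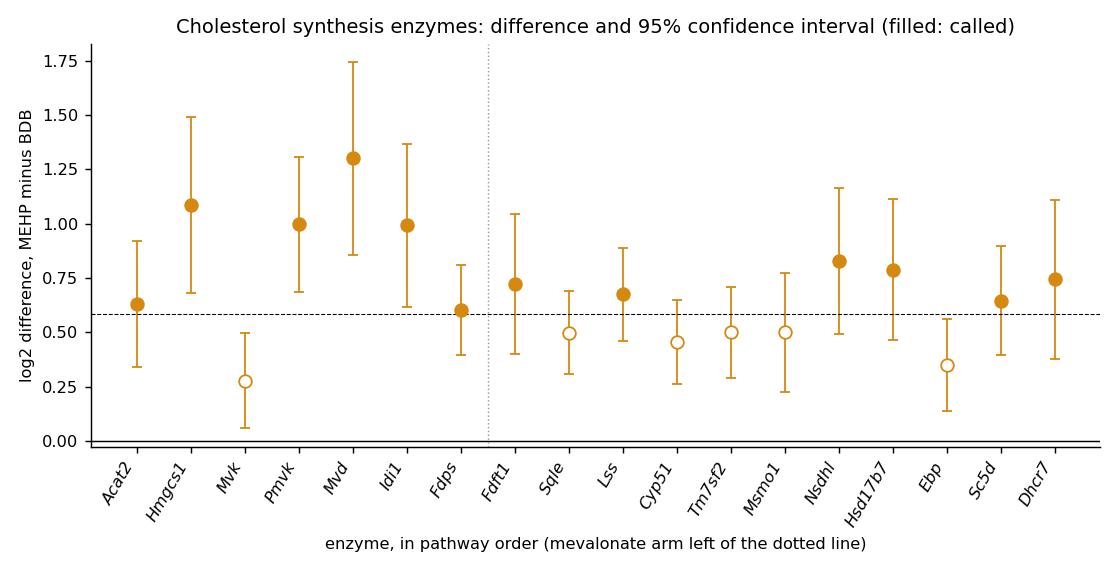
Log2 difference MEHP minus BDB (points) with its 95% confidence interval (bars) for 18 enzymes of cholesterol synthesis in pathway order; filled points were called and the dashed line marks 1.5-fold. All 18 intervals lie above 0, from Mvk at 0.28 to Mvd at 1.30.

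The genes that sense and carry sterol moved in the same direction where they passed. Of 12 tested, 3 were called higher with MEHP. Insig1, which holds the SREBF precursor in the endoplasmic reticulum, read 0.60, 0.38, 0.40 and 0.57 with MEHP and -0.19, -0.97, -0.44 and -0.87 with BDB, a difference of 1.103 ± 0.17 (limma adjusted p = 0.0129). Lpin1, a phosphatidate phosphatase, differed by 1.22 ± 0.17 (adjusted p = 0.0105), and the sterol carrier Stard4 was called on its dimmer probe (0.70 ± 0.16 there, adjusted p = 0.0381). Srebf2 itself differed by 0.34 (95% confidence interval 0.03 to 0.65, adjusted p = 0.169) and Srebf1 by 0.16 (-0.25 to 0.56). Without any 1 MEHP array, or without BDB replicate 2 or 4, the count was 2.

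Of 13 fatty acid synthesis genes tested 7 were called, all higher with MEHP, with a list median of 0.53. Fasn, the fatty acid synthase, read -0.29, -0.23, -0.53 and -0.49 against -1.17, -1.87, -1.24 and -1.70, a difference of 1.11 ± 0.16 (limma adjusted p = 0.012). The elongase Elovl6 differed by 1.05 ± 0.19 (adjusted p = 0.0221), the desaturase Scd1 by 0.76 ± 0.16 (adjusted p = 0.0298), the citrate carrier Slc25a1 by 0.70 ± 0.12 (adjusted p = 0.018), the citrate lyase Acly by 0.66 ± 0.09 (adjusted p = 0.0102) and the NADPH source Me1 by 0.63 ± 0.08 (adjusted p = 0.0102). Acaca, the acetyl-CoA carboxylase, was called on 1 of its 3 probes (0.66 ± 0.14). Pgd, which makes NADPH in the pentose phosphate pathway, differed by 0.77 ± 0.13 (adjusted p = 0.0174). The list held 3 calls without MEHP replicate 2, MEHP replicate 4, BDB replicate 2 or BDB replicate 4, and 4 without MEHP replicate 1.

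Retinoid genes moved in opposite directions. Aldh1a1, which oxidizes retinal to retinoic acid, read 0.13, 0.23, 0.02 and 0.16 with MEHP and -1.72, -1.40, -1.60 and -1.68 with BDB. The difference of 1.74 ± 0.09, or 3.33-fold (limma adjusted p = 0.000134), was present on every slide, and DMSO stood near BDB at -1.72 ± 0.08. Dhrs3, which reduces retinal back to retinol, was lower with MEHP by 1.03 on the log2 scale (SE 0.20, adjusted p = 0.0253). Those 2 were the called members of 8 tested retinoid genes. Dhrs3 lost its call without MEHP replicate 1, 2 or 4, or BDB replicate 2, 3 or 4. Its DMSO mean was 1.00, above those of BDB (0.28) and MEHP (-0.75). Among 16 aldehyde dehydrogenases tested, a list chosen after values were seen, Aldh9a1 (0.79 ± 0.09) and Aldh1a7 were also called. Aldh1a7 was well above background on all MEHP arrays and on no BDB array, so that its level was at least 2.01-fold higher with MEHP (the MEHP mean against the limit of detection on the BDB arrays). It is a close relative of Aldh1a1 and its probe may share signal with it. Among 17 glutathione transferases, Gsta4 (0.68 ± 0.14), Gstm1 (0.66 ± 0.11) and the microsomal Mgst1 (0.61 ± 0.13) were called higher and 16 of 17 lay above 0, but the count was 0 without MEHP replicate 2 or BDB replicate 2 and 1 without MEHP replicate 4 or BDB replicate 1, 3 or 4. Of 23 NRF2 targets, which answer to oxidative and electrophilic stress, Pgd was the 1 called, and its call was lost without MEHP replicate 2 or 4 or BDB replicate 2 or 4.

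Some genes of the integrated stress response were higher with BDB. Of 18 genes tested, 4 were called and all 4 were lower with MEHP. Ppp1r15a, the phosphatase subunit that reverses eIF2α phosphorylation, read 4.74, 4.48, 4.60 and 5.04 with MEHP and 6.12, 6.55, 5.67 and 6.68 with BDB. Its difference was -1.54 ± 0.22, or 2.91-fold (limma adjusted p = 0.0105). Ddit3, which encodes the transcription factor CHOP, read 3.05, 3.04, 3.05 and 3.34 against 4.54, 4.67, 4.05 and 4.75, a difference of -1.38 ± 0.15 (adjusted p = 0.00549). The difference was present on every slide in both genes, from -1.65 to -1.51 for Ppp1r15a and from -1.50 to -1.31 for Ddit3. Atf3, a stress-induced transcription factor, differed by -1.16 ± 0.17 (adjusted p = 0.0108), and the pseudokinase Trib3 by -0.65 ± 0.13 (adjusted p = 0.0283). The first 3 of these genes kept their calls with each array left out, while Trib3 lost its call without MEHP replicate 1, 2 or 3 or BDB replicate 2 or 4.

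The other members showed that the group was not uniform. Atf4 itself differed by -0.05 (95% confidence interval -0.27 to 0.17), its target Asns, the asparagine synthetase, by 0.04 (-0.18 to 0.25) and Chac1 by -0.05 (-0.33 to 0.24). Of the 18 genes 15 lay below 0, and the list median was -0.19. Of 16 endoplasmic reticulum chaperone genes limma called 0, with 3 at an unadjusted p below 0.05, and Hspa5, which encodes the chaperone BiP, differed by -0.34 (-0.52 to -0.15). The DMSO means of Ppp1r15a (5.40), Ddit3 (3.60), Atf3 (2.39) and Trib3 (7.26) lay between those of MEHP and BDB. DMSO replicate 1, at 3.08 for Atf3 and 6.03 for Ppp1r15a, read higher than the other 3 DMSO arrays in both.

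The promoter of Atf3 is shown because it holds TGATGNAA, the core of the C/EBP-ATF response element that ATF4 binds with a C/EBP partner, as its complement TTNCATCA (capitals). It is the RefSeq sequence of chr1:191183284-191183583 on GRCm38.p6, minus strand, 5′ to 3′.

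Atf3: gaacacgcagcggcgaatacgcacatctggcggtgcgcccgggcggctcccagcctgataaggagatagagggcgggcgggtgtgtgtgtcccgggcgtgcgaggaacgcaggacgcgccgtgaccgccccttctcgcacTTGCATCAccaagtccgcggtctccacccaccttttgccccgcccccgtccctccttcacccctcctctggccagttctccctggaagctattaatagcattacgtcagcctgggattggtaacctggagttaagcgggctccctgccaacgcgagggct

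TGATGNAA occurred on either strand in 7 of the 17 promoters of this list that were at hand (41.2%), in 4.51% of all promoters and in 2.7% of those of tested genes.

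snoRNA host genes, whose introns carry small nucleolar RNAs and whose spliced transcripts are mostly short-lived, were also higher with BDB. Of 8 tested, a list chosen after values were seen, 4 were called, none was above 0 and the median was -0.69. Snhg12 read 2.996, 3.03, 3.28 and 3.37 with MEHP and 3.93, 4.86, 3.94 and 4.78 with BDB. The BDB values fell in 2 pairs, the higher pair being replicates 2 and 4 in the first slide row, and every BDB array was above every MEHP array. Its difference was -1.21 ± 0.23 (limma adjusted p = 0.0226), -1.68 within the first row and -0.73 within the third. Snhg16 differed by -1.15 ± 0.21, Snhg1 by -1.10 ± 0.18 and Snhg17 by -0.88 ± 0.17, while the other tested probe of Snhg16 gave -0.04 ± 0.13. In DMSO all 4 lay within 0.3 of MEHP. All 4 were called with the slide or the row as a block, but 0 without MEHP replicate 2 or BDB replicate 4 and 1 without MEHP replicate 1, MEHP replicate 4 or BDB replicate 2.

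Histone genes made up the largest set of calls on that side. Of 39 replication-dependent and linker histone genes tested, chosen as a list after values were seen, 16 were called, all lower with MEHP, and 38 of 39 lay below 0, with a median of -0.54. H1f1, a linker histone, read 0.52, 0.21, 0.33 and 0.22 with MEHP and 1.86, 1.89, 1.30 and 1.61 with BDB, a difference of -1.35 ± 0.14, or 2.54-fold (limma adjusted p = 0.00369). Among the other called histone genes H3c14 differed by -0.84 ± 0.10 (adjusted p = 0.008), H2bc3 by -0.83 ± 0.10, H3c11 by -0.80 ± 0.08 (adjusted p = 0.0035) and H2ac4 by -0.75 ± 0.11. H3c14 read 2.92, 2.65, 2.62 and 2.73 with MEHP, 3.72, 3.57, 3.38 and 3.61 with BDB and 2.83, 2.86, 2.71 and 2.58 in DMSO. BDB stood apart and MEHP and the vehicle overlapped. Histone genes of a class are near copies of each other, so probes can share signal and the 16 are not independent. The values are signals of labelled cRNA, and how fully the labelling captured histone transcripts was not tested. The count was 11 without BDB replicate 1 and 10 with normexp background correction. CCAAT was in 28 of the 35 histone promoters at hand (80%), against 43.4% of the promoters of all tested genes.

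Other genes of the dividing cell gave no call, which for lists of this size is near the 2.59% called among all genes tested. limma called 0 of 36 DNA replication genes, with 4 at an unadjusted p below 0.05, and 0 of 20 mitotic genes, with 0 at that level, and the list medians were 0.08 and 0.06. Orc2, a subunit of the origin recognition complex, had the smallest p of the first list, at -0.49 (95% confidence interval -0.68 to -0.29, adjusted p = 0.019), under the 1.5-fold limit. For Ccna2, cyclin A2, the difference was 0.29 (-0.06 to 0.64).

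**Figure D4:**
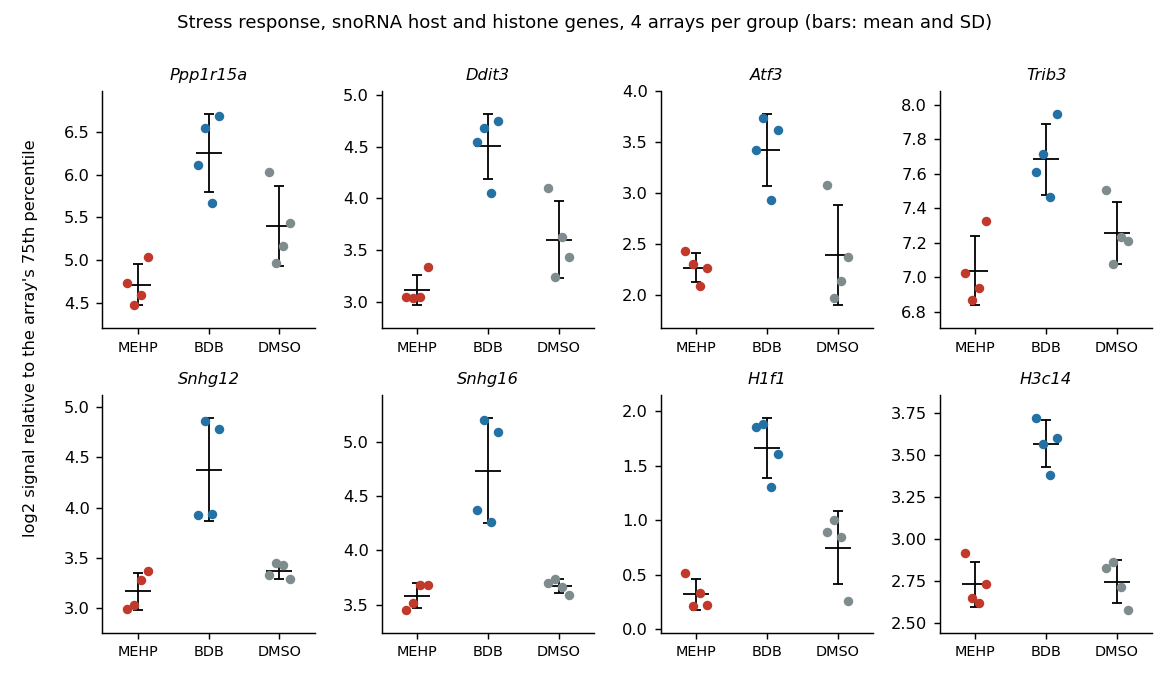
Log2 signal relative to the array's 75th percentile for 4 integrated stress response genes, 2 snoRNA host genes and 2 histone genes on the 4 MEHP, 4 BDB and 4 DMSO arrays (points), with the mean and SD of each group (bars); every y axis has its own range. In all 8 genes, each of them called, every BDB point lies above every MEHP point, as in 6.3% of all genes tested. For Snhg12, Snhg16 and H3c14 the DMSO points lie below all BDB points.

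Other single genes were among the largest differences toward BDB. Igf1, insulin-like growth factor I, read -0.78, 0.20, 0.10 and -0.07 with MEHP and 0.48, 1.85, 2.07 and 1.82 with BDB. The lowest BDB array, replicate 1, was on the slide of the lowest MEHP array, and the difference was -1.69 ± 0.35, or 3.24-fold (limma adjusted p = 0.0293). Igf1 was called on 2 of its 4 probes, while the others gave -1.46 ± 0.49 and 0.09 ± 0.39. Its call was lost with any 1 array left out except BDB replicate 1. Grem1, which binds and blocks bone morphogenetic proteins, differed by -1.45 ± 0.21 (adjusted p = 0.0115), the guidance protein Sema5a by -1.46 ± 0.28 (adjusted p = 0.0237), the teneurin Tenm4 by -1.40 ± 0.23 (adjusted p = 0.0158; -0.35 ± 0.31 on its other tested probe) and Car6, the secreted carbonic anhydrase, by -1.28 ± 0.31 (adjusted p = 0.0481). For Sema5a, Tenm4 and Car6 the calls were lost without MEHP replicate 2 or BDB replicate 2, and for Sema5a and Car6 also without MEHP replicate 1, MEHP replicate 4, BDB replicate 3 or BDB replicate 4. Grem1 kept its call with each array left out.

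In DMSO, Sema5a (-0.46) and Tenm4 (1.75) stood at the BDB level, while Car6 (2.04) lay above both compounds. The GTPase gene Gvin1, induced by interferon (-1.35 ± 0.23, adjusted p = 0.0173) and the deubiquitinase Otud7a (-1.41 ± 0.30, adjusted p = 0.0319) were also among the 10 largest called differences toward BDB. Gvin1 lost its call without MEHP replicate 2, MEHP replicate 4 or BDB replicate 2, and Otud7a without any 1 array except MEHP replicate 3 or BDB replicate 1. Of 17 other interferon-induced genes tested 2 were called, both higher with MEHP, the transcription factor Stat2 (0.64) and Oasl1 (0.80), and the count was 0 without MEHP replicate 2 or 4 or BDB replicate 2 or 4. The list as a whole did not lean to MEHP: its median was -0.04, 10 of the 17 lay below 0, and the lowest, not called, was -1.14. Dcn, the matrix proteoglycan decorin, was the 1 called gene of 21 tested matrix and contractile genes, at -1.02 ± 0.24 (adjusted p = 0.0427), and its call was lost with any 1 array left out except BDB replicate 1, and with the slide or the row as a block. The list held 4 calls without BDB replicate 1 and 3 with the replicate block. The median of that list was -0.23, with 17 of 21 below 0. Dcn is also in the fibroblast marker list, so the fibroblast sums given above are not independent of this list. Of 16 genes downstream of ERK, the growth factor-driven MAP kinase, Egr1 (-0.79 ± 0.19), Fos (-0.89 ± 0.21) and Myc (-0.60 ± 0.08) were called. None of the 3 was called without BDB replicate 2 or BDB replicate 4, 1 was without any 1 MEHP array or BDB replicate 3, and Egr1 and Fos lost their calls without BDB replicate 1 as well. Both also lost their calls with the row or the replicate block, and Fos with the slide as a block, with quantile normalization and with normexp, where it stood at -0.33. Myc lost its call with normexp. Txnip, which restrains glucose uptake, was the 1 called gene of 21 in glycolysis and lactate export, at -0.78 ± 0.17 (adjusted p = 0.0342), and its call was lost with any 1 array left out except MEHP replicate 3.

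Several genes outside the lists were among the 10 largest differences toward MEHP. Eppk1, the cytoskeletal linker epiplakin, differed by 1.58 ± 0.19 (limma adjusted p = 0.00909), the amino acid transporter Slc38a4 by 1.35 ± 0.13 (adjusted p = 0.00368), Cobll1 by 1.29 ± 0.20 (adjusted p = 0.0138) and Kank3 by 1.21 ± 0.08 (adjusted p = 0.000748). Kank3 read 3.46, 3.38, 3.46 and 3.56 with MEHP and 2.11, 2.22, 2.35 and 2.35 with BDB, with every MEHP array above every BDB array. Eppk1 and Slc38a4 are dim, and both lost their calls with normexp background correction. Tgfb2, a transforming growth factor, differed by 0.88 ± 0.10 (adjusted p = 0.00476), as the 1 called gene of 20 in its family's list. Slc22a23, an orphan transporter, was not well above background on any BDB array, and its MEHP mean was at least 1.86-fold over the detection limit there. The olfactory receptor gene Olfr224 was well above background on none of the MEHP arrays, and its BDB mean was at least 2.13-fold over the limit. With normexp background correction neither was called, nor was Aldh1a7. Slc22a23 also lost its call without MEHP replicate 1, 2 or 4 or BDB replicate 2.

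**Figure D5:**
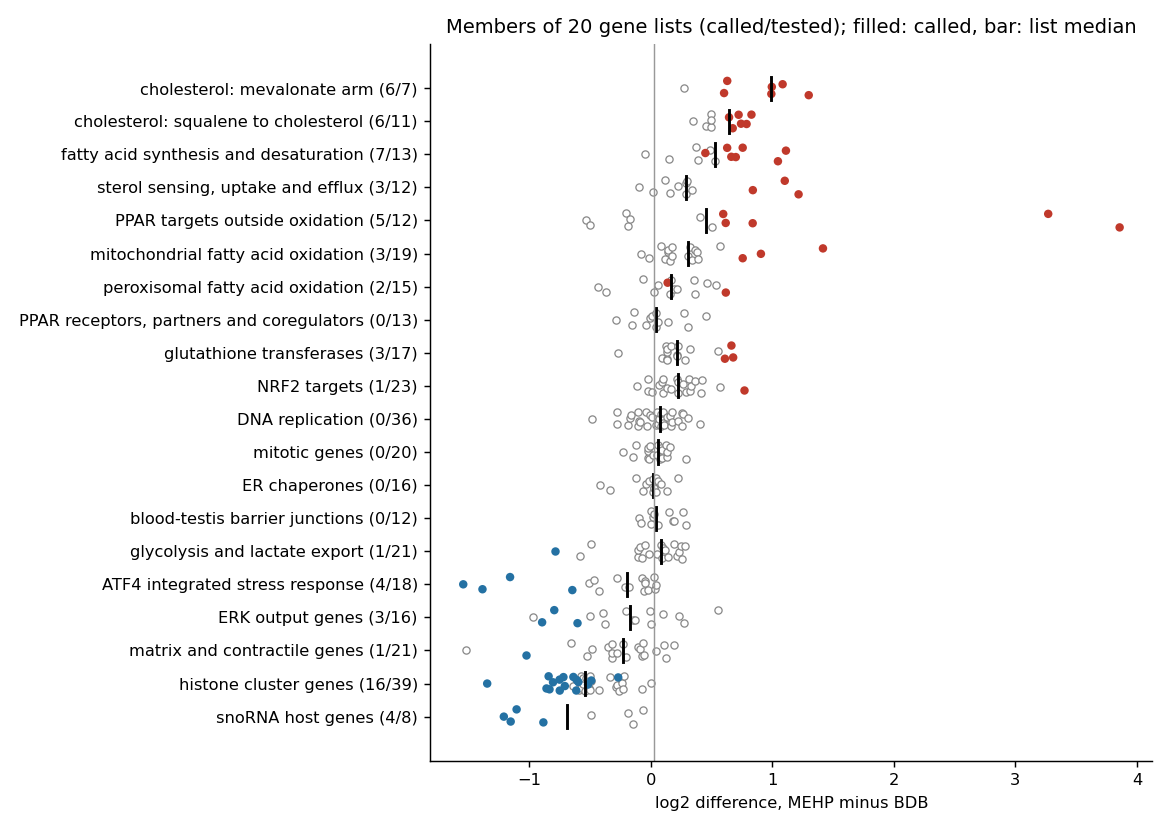
Log2 difference MEHP minus BDB of every tested member of 20 gene lists, each by its brightest tested probe; filled points were called on that or another probe (red higher, blue lower with MEHP), black bars are list medians, the grey line is the median of all genes tested (0.03), and the axis labels give called over tested members. The sterol and fatty acid lists lie to the right, DNA replication and mitotic genes around 0, and histone and snoRNA host genes to the left.

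For several systems limma called no difference between the compounds. These were the aryl hydrocarbon receptor pathway (0 of 5 tested, 1 at an unadjusted p below 0.05, with Cyp1a1 too dim to test and 1 call with the slide as a block or with quantile normalization), the junctions of the blood-testis barrier (0 of 12, 2 at that level), chemokines and inflammatory secreted genes (0 of 14, 7 at that level, with 1 call without BDB replicate 1 or 3 and with the replicate block) and metallothionein and zinc genes (0 of 8, 1 at that level). With 2.59% of all genes tested called, 0 calls in lists of this size are near the general share. The same holds for 1 call in the lists of 20 to 23 genes above. A p that misses the threshold does not show that the compounds act alike. The intervals left room for moderate differences in some: Ahr differed by 0.56 (95% confidence interval 0.22 to 0.90), Mt1, a metallothionein, by 0.56 (0.24 to 0.87) and the acute phase gene Saa3 by -1.31 (-2.30 to -0.33), while Ctnnb1, beta-catenin, differed by 0.19 (0.01 to 0.36). Of 10 tested ester hydrolases, Esd was called, on its dimmer probe (0.59 ± 0.13), and the count was 0 with normexp, with the slide or row as a block and without any 1 array except BDB replicate 1 (2 without that array), while 13 others were too dim to test, 9 of them carboxylesterases. The reference gene Hprt differed by 0.05 (-0.16 to 0.25). Of 3 genes of growth factor and kinase signalling, Mapk12 differed by 0.27 (0.03 to 0.50), Mras by 0.33 (0.06 to 0.60; 0.77 on its dimmer probe) and Egfr by -0.21 (-0.39 to -0.02; 0.09 and 0.02 on its other probes), and none was called.

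The vehicle arrays entered no test and lay in other slide rows than MEHP and BDB, so their levels are a description in which row and treatment cannot be told apart. Of the 175 genes higher with MEHP, the DMSO mean lay nearer to BDB for 138 (78.9%). Of the 134 lower with MEHP it lay nearer to BDB for 58 (43.3%) and nearer to MEHP for 76. Over all genes tested, DMSO was nearer to BDB for 49.8%, for 44.9% of those with a positive difference and for 56.0% of those with a negative one. Among genes named above, Pdk4, Angptl4, Aldh1a1, Mvd and Tgfb2 were of the first kind, with BDB within 0.3 log2 of DMSO, and Atf3, Snhg16, H3c14 and H3c11 had MEHP within 0.2 log2 of DMSO with BDB above it by 0.8 or more. Fasn lay between, with MEHP 0.61 above and BDB 0.50 below DMSO.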

How the data were processed

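TM4 cells were exposed to MEHP, BDB or vehicle, with 4 cultures per group that the study describes as biological replicates, and the p-values measure the spread between these cultures. The deposited files hold Agilent Feature Extraction intensities, which the authors' scanner software had already background-corrected. The deposited value table holds log2 values, which the authors made in GeneSpring with a shift to the 75th percentile and centring of each probe on the median of all samples; it served as an alternative. Processed signals got a floor of 1 and a log2 transform, the 75th percentile of the non-control spots was subtracted per array, outlier spots were then dropped, and replicate spots were averaged by probe. Of 55681 probes, 26582 carry a gene name here (20145 symbols). Of 17 probes with no usable spot on 1 or more of the 8 arrays, 8 were tested, and Herpud1 lacked BDB replicate 1.

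MEHP and BDB were compared with lmFit and eBayes of limma 3.58.1 in R 4.3.3 over 24128 probes (11941 genes), with Benjamini-Hochberg adjustment over all of them. Intervals are 95% intervals for single genes, and ± is the SE of the difference unless SD is written. Genes are described by their brightest tested probe. Python 3.11.15 and matplotlib 3.10.9 drew the figures, and the fit was tested on simulated data. Genes were named when among the 10 largest called differences in each direction (detected on all 8 arrays, groups not overlapping), called against a group with no detected array, called in a listed pathway, the member with the smallest p in a list without calls, or on a short list of receptors, reference and phthalate-related genes; a few others were chosen after their values were seen. The genes, lists and tests were chosen with earlier results of these data known. A few genes, taken out of the lists, are not reported here. Alternatives covered scaling, background correction, filter, fold limit, blocks (slide, slide row, replicate), probe choice and leaving out each array.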

Additional observations from a re-analysis of the deposited data

Results flagged for a closer look

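Among 252 groups of 4 arrays, each the MEHP or BDB values of 1 named gene, 17 held an array whose gap to its nearest neighbour, divided by the whole range of the group, passed the 95% critical value of Dixon's test for 4 values. Chance flags about 1 in 20 groups. BDB replicate 1 was the array that stood apart for 6 genes: Acadl (share of the range 0.906; 1.70 against 1.43 to 1.45), Dhrs3 (0.879; -0.35 against 0.46 to 0.56), Esd (0.862), Kdr (0.844), H2bc1 (0.84) and Igf1 (0.84; 0.48 against 1.82 to 2.07). It was low for Dhrs3 and Igf1 and high for the others. In Dhrs3 and Igf1 replicate 1 was also the lowest MEHP array (-1.02 and -0.78) and the lowest DMSO array (0.53 and 0.32). In Esd, H2bc1 and Idi1 replicate 1 was the highest array of MEHP, BDB and DMSO alike. In Kdr it was the highest BDB array but the lowest MEHP array. The replicate 1 arrays of these groups lay on the same slide, and the main fit held no term for slide or replicate. MEHP replicate 1 stood apart for 5 genes, high for Slc39a14 (0.995), Acly (0.872), Idi1 (0.862) and H1f4 (0.837) and low for H2bc18 (0.839). MEHP replicate 4 was high for Ddit3 (0.956; 3.34 against 3.04 to 3.05) and Rxra (0.833). The remaining flags were H4c9 (0.988, BDB replicate 4 high), Mras (0.852, BDB replicate 3 low), Slc22a23 (0.849, BDB replicate 4 low) and Ppara (0.831, BDB replicate 2 low).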

How the results depend on the processing

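The 309 called genes (175 higher and 134 lower with MEHP) became 179 (91 and 88) with normexp background correction, 123 (69 and 54) when a probe needed detection on at least 1 array, 6 (5 and 1) with no filter on dim probes, 890 (596 and 294) with no fold limit and 56 (25 and 31) past 2-fold. With each array left out in turn the count ranged from 111 to 450 (61 to 239 higher, 50 to 211 lower), lowest without MEHP replicate 2 and highest without BDB replicate 1. The cause was not tested. Of the 81 called genes among those named, 76 lost their call with no filter, 40 with detection on at least 1 array, 16 with normexp and 47 with at least 1 array left out; none changed direction. Pdk4, Angptl4, Aldh1a1, Cpt1a and Kank3 were called in every setting. The distance between group means was 83.2 over all non-control probes (exact permutation p = 0.2), 41.7 without MEHP replicate 3 (exact permutation p = 0.0571) and 36.9 to 42.8 with any 1 array left out. With the replicate number as a block, 350 genes were called (181 and 169), 281 of the 309 among them, and Acat2, Dhcr7, Car6, Egr1 and Fos lost their calls. Same-numbered MEHP and BDB arrays deviated together for numbers 1, 3 and 4 (correlations 0.342, 0.310 and 0.299, the highest of the 16 pairs, each pair on 1 slide) but not for number 2 (-0.152, on different slides), and no label says what a number marks, so the arrays were not treated as pairs. Signal over background limits what can be said of dim probes.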
